A study of Oryza sativa with 14 samples.

Results

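Leaves of field-grown rice were compared after 2 ways of feeding the paddy: hairy vetch ploughed in as green manure (GM) and chemical fertilizer (CF). The comparison holds the 8 libraries of 2023, 4 per treatment, chosen by year and treatment label out of 14 libraries in the series. The other libraries of the series, from the following year, were not used.

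All plants were the japonica cultivar Koshihikari, wild type, and all leaves were taken 47 days after transplanting. GM plots had received hairy vetch (Vicia villosa) sown at 30 kg of seed per hectare in the autumn before, and no chemical fertilizer. CF plots had received a basal dressing of 56 kg N, 176 kg PO4, 56 kg K, 90 kg Mg and 120 kg SiO2 per hectare. Seedlings of both treatments had been raised in fertilized trays. The comparison asks which leaf transcripts differ between the fertilizer regimes. Each leaf is 1 biological replicate per the labels, and the number of fields or plots per treatment is not stated. The p-values therefore measure leaf-to-leaf spread, and treatment and field cannot be told apart. Seed was sown on either of a pair of dates and seedlings were set by hand or by machine, and the labels do not say which went with which treatment, so these cannot be told apart from it either. The labels describe the leaf in one place as the first fully expanded from the top and in another as the largest.

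Vetch is a legume whose root nodules fix nitrogen, and its residues release ammonium and other nutrients gradually as soil microbes break them down, whereas a basal dressing of fertilizer is available at once. A rice leaf spends much of its nitrogen on Rubisco and on the chlorophyll-binding proteins of the photosystems. It assimilates ammonium through glutamine synthetase and builds cysteine from sulfate, so nitrogen and sulfur supply meet in amino acid synthesis.

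Transcripts that were higher with green manure included antenna and photosystem proteins, the cysteine synthase ASTOL1, the copper transporter COPT1, 5 water channels and the strigolactone receptor D14. Those that were lower included the breakdown enzymes ASNASE2, PRODH and ALN, the photoprotective protein PSBS2 and 6 wall-associated kinases. Of 18577 genes tested with edgeR's quasi-likelihood test, 460 (2.48% of those tested) had a Benjamini-Hochberg adjusted p under 0.05 and are referred to as called. Called genes were higher with green manure at 302 loci (1.63%) and lower at 158 (0.851%). Changes were moderate, with a median log2 fold change (GM over CF) of 0.77 among the called higher genes and -0.77 among the called lower ones. A change of at least 1 on the log2 scale was reached by 100 of the higher and 52 of the lower genes. Called genes of both directions were more abundant than tested genes in general. Levels are given in CPM, reads per gene scaled to a common library size. The median was 41.3 CPM for the higher and 26.5 CPM for the lower genes, against 13.7 CPM over all tested genes. These levels are means over GM and CF leaves together, so the rise itself enters those of the higher genes. The part that abundance plays in whether a gene is called was not tested. All GM leaves stood above all CF leaves at 5.27% of tested genes and below them at 4.74%. Below, values of 4 GM leaves or 4 CF leaves follow the replicate numbers 1 to 4, written GM1 to GM4 and CF1 to CF4, and log2 fold changes carry their standard error.

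Total counts ranged from 8953151 to 11375515 in GM libraries and from 8161851 to 9549669 in CF libraries. The 100 most abundant genes took 33.2% to 40.5% of the reads in GM libraries and 28.6% to 33.1% in CF libraries. This composition difference bears on scaling. Scaled by total reads alone, the median log2 fold change of all tested genes was -0.18, against -0.00 with the trimmed mean of M-values (TMM) used here, and 3.67% of tested genes were called, 166 higher and 515 lower. All 158 genes called lower with TMM were also called lower with total-read scaling, as were 155 of the 302 called higher. Rubisco activase (RCA), a marker of photosynthetic leaf tissue, lay between 22246 and 33032 CPM in GM libraries and between 18378 and 24078 CPM in CF libraries. The root markers LSI2 and NRT2.1 and the meristem marker OSH1 had no read in any library. The silicon channel LSI1, fixed as another root marker, was detected in all leaves, at 18.0 to 33.6 CPM with green manure and 9.20 to 19.2 CPM with chemical fertilizer, and was not called (adjusted p = 0.0633). Markers of dividing cells and panicle were low: CDKB2;1 reached 1.98 CPM, MADS1 3.53 CPM and MADS15 0.118 CPM, while MADS14 lay between 1.33 and 6.06 CPM in GM leaves and between 3.77 and 15.3 CPM in CF leaves. In whole leaves, more cells of a type and more RNA per cell cannot be told apart.

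The GM leaves did not form 1 tight group. The first principal component of log2 CPM held 32.2% of the variance, with scores of 24.6, 55.4, 1.18 and 1.15 in GM libraries 1 to 4 and of -29.6, -20.3, -25.6 and -6.82 in CF libraries 1 to 4. GM1 and GM2 thus lay far from GM3 and GM4, which nearly coincided, and CF4 lay nearest to the GM side. The second component (21.7%) crossed the treatments, with 31.6 in GM1 and 30.3 in CF2 at one end and -30.8 in GM3 and -30.3 in GM4 at the other.

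**Figure D1:**
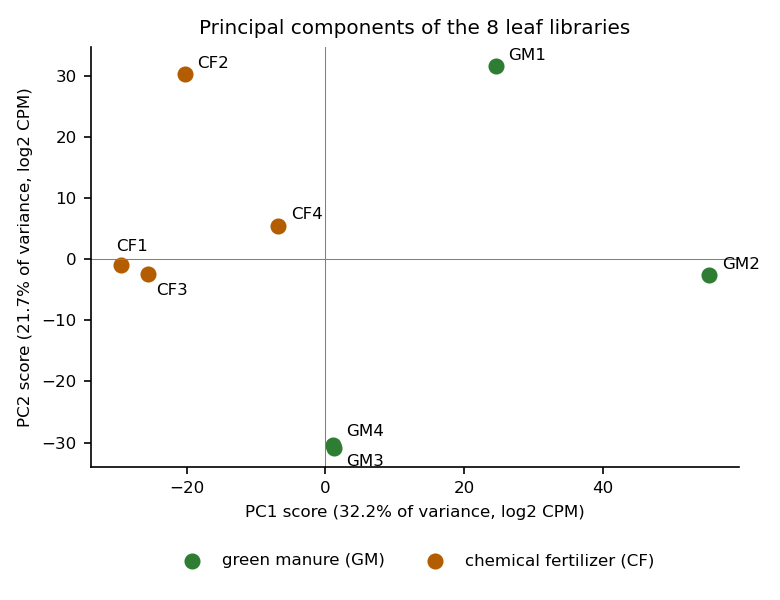
Scores of the 8 libraries on the first 2 principal components of log2 CPM of tested genes, 1 point per leaf, GM in green and CF in brown. GM2 stands at 55.4 on the first component, GM3 and GM4 lie together near 1.18 and 1.15, and GM1 and CF2 share the highest scores on the second.

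Genes with the strongest weight on the first component showed which transcripts separated the leaves. Among those high at the GM1 and GM2 end, the S-like ribonuclease RNS4 (Os09g0537700), which degrades RNA, had 34.9, 14.3, 26.9 and 10.8 CPM in GM leaves, against 1.65, 0.743, 0.348 and 1.05 CPM in CF leaves, and all 4 GM leaves stood above all CF leaves. FTSH6 (Os06g0229000), a chloroplast FtsH-type protease, had 10.2, 15.1, 4.18 and 3.61 CPM with green manure, against 0.620, 0.531, 0.696 and 2.09 CPM with chemical fertilizer. The glutaredoxin GRX4 (Os01g0368900) had 7.64, 18.7, 4.70 and 12.7 CPM in GM leaves and 0.517, 1.06, 0.812 and 3.35 CPM in CF leaves. BURP7 (Os05g0217700), a BURP-domain protein, had 28.3, 36.9, 5.43 and 11.7 CPM in GM leaves and 0.620, 0.425, 0.348 and 4.92 CPM in CF leaves. GRX4 (adjusted p = 0.0598) and BURP7 (0.142) were not called although their treatments did not overlap. FTSH6 (log2 fold change 3.04 ± 0.61, adjusted p = 0.0367) lost its call without GM1, CF1, CF2 or CF3, where its adjusted p reached 0.144, whereas RNS4 (4.49 ± 0.53, adjusted p = 0.00522) kept it whichever library was left out. Os03g0280400 had 88, 64, 26 and 22 reads in GM leaves and none in CF leaves, which puts its level in GM leaves at least 65.5-fold higher when 3 reads are taken as the limit for the whole CF group.

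Genes at the opposite end mostly cut across the treatments. The xyloglucan-modifying enzyme XTH10 (Os06g0697000), which remodels cell walls, had 0, 0.353, 12.4 and 8.04 CPM in GM leaves and 11.3, 1.17, 10.4 and 1.26 CPM in CF leaves. The peroxidase prx125 (Os10g0109300) had 0.0889, 0, 11.2 and 13.5 CPM in GM leaves and 4.65, 0.956, 7.42 and 2.51 CPM in CF leaves. The lipase GELP77 (Os06g0156600) had 0, 0.118, 9.30 and 9.21 CPM in GM leaves and 13.2, 0.743, 11 and 1.68 CPM in CF leaves. These 3 genes and the peroxidase Os01g0378100 were high in GM3, GM4, CF1 and CF3 and low in GM1, GM2, CF2 and CF4, with adjusted p between 0.864 and 0.962 for the treatment. The MYB-like gene Os01g0663051 instead had 0.978, 6.70, 38.9 and 31.7 CPM in GM leaves and 71.0, 73.4, 82.8 and 59.8 CPM in CF leaves. GM1 and GM2 were lowest there, and it was not called either (-1.89 ± 0.84, adjusted p = 0.359).

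**Figure D2:**
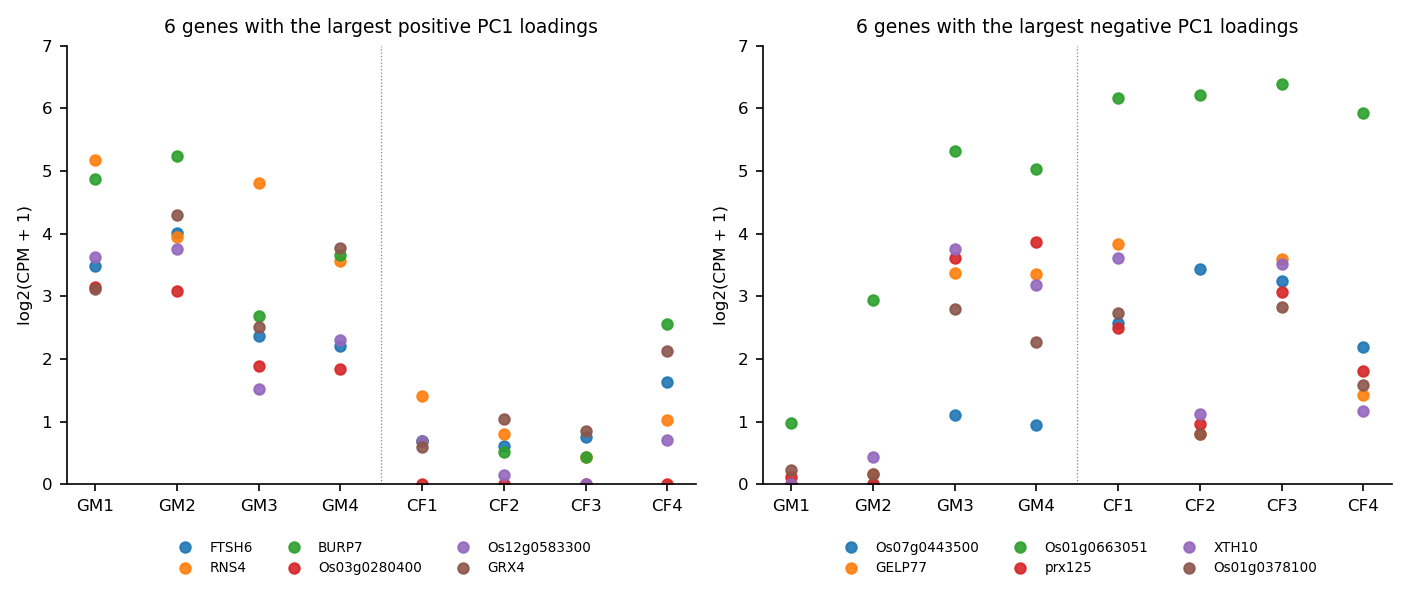
Levels of the 12 named genes with the strongest weights on the first principal component, as log2(CPM + 1) in each library, GM left of CF. Left, genes high at the GM1 and GM2 end, such as RNS4 and FTSH6. Right, genes of the opposite end, where XTH10, prx125, GELP77 and Os01g0378100 are high in GM3, GM4, CF1 and CF3.

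The Rubisco small subunit genes, among the most abundant leaf transcripts, also cut across the treatments. Summed over 4 tested genes they had 10645, 28046, 29600 and 29089 CPM in GM leaves and 18130, 11200, 20892 and 21984 CPM in CF leaves. GM1 and CF2 were lowest, the same leaves that lay together on the second component, and the treatments overlapped. None of the 31 tested Calvin cycle and photorespiration genes was called by edgeR (median log2 fold change 0.17), 1 was called by DESeq2, and 4 had an unadjusted p under 0.05. OsGAPB (Os03g0129300), a subunit of plastid glyceraldehyde-3-phosphate dehydrogenase, had the smallest p of that list, with 6188, 8148, 6190 and 6242 CPM in GM leaves and 4295, 3757, 4918 and 5869 CPM in CF leaves (adjusted p = 0.133).

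Light capture held more calls. Of 60 tested genes of light capture and photosynthetic electron transport, 13 rose, 1 fell and 46 were not called, with a median log2 fold change of 0.44. The called share was 23.3%, against 2.48% of all tested genes. CAB2R (Os01g0600900), an antenna protein of photosystem II, had 9709, 19525, 11120 and 11305 CPM with green manure, against 3569, 2095, 3154 and 4755 CPM with chemical fertilizer. Its lowest GM leaf was above its highest CF leaf, GM2 was far above the other GM leaves, and its change of 1.93 ± 0.27 (adjusted p = 0.00336) was called whichever library was left out. PSBO (Os01g0501800), of the oxygen-evolving complex, had 4521, 8379, 5205 and 5044 CPM in GM leaves, against 2544, 1898, 2805 and 3441 CPM in CF leaves (1.11 ± 0.21, adjusted p = 0.0142).

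The other rises in that list covered both photosystems. In photosystem II they were the antenna proteins LHCB2.1 (1.02 ± 0.20), CP26 (0.83 ± 0.19) and LHCB3 (0.71 ± 0.17) and the oxygen-evolving protein PSBP (0.85 ± 0.20). In photosystem I they were the antenna proteins LHCA2 (0.75 ± 0.18) and DYE1 (0.73 ± 0.18) and the subunits PSAH (1.27 ± 0.25), PSAO (1.15 ± 0.25), PSAE (1.08 ± 0.23), PSAN (1.06 ± 0.21) and PSAF (0.78 ± 0.19). For each of the 13 rises GM2 held the highest level and CF2 the lowest. The list took 10.9%, 16.6%, 12.9% and 12.8% of all reads in GM libraries 1 to 4 and 8.95%, 8.2%, 9.51% and 10.4% in CF libraries 1 to 4. The count of rises fell to 1 without CF1, 2 without CF2 and 1 without CF3, and reached 26 without GM1. CAB2R was called in all of these fits, PSBO lost its call without CF1 or CF3 (adjusted p up to 0.0677), and the others each lost their call without CF1, without CF2 and without CF3 (up to 0.162). With total-read scaling 16 members were called higher and 2 lower.

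PSBS2 and members of the early light-inducible family were lower. PSBS2 (Os04g0690800), a photosystem II protein that the annotation links to photoprotection, had 228, 196, 191 and 218 CPM in GM leaves, against 335, 442, 343 and 302 CPM in CF leaves. The groups did not overlap, and the fall (-0.77 ± 0.12, adjusted p = 0.00345) held whichever library was left out. The early light-inducible protein ELIP (Os01g0246400), a thylakoid protein of light stress, had 691, 456, 373 and 437 CPM in GM leaves, against 887, 1298, 858 and 796 CPM in CF leaves (-0.97 ± 0.20, adjusted p = 0.0295). A related gene, Os07g0178800, had 1065, 796, 638 and 702 CPM in GM leaves, against 1357, 2116, 1277 and 1261 CPM in CF leaves (-0.91 ± 0.19, adjusted p = 0.0289). The third tested member, Os07g0178700, was not called (-0.35 ± 0.21, adjusted p = 0.472). ELIP lost its call without GM2, GM4, CF1, CF2 or CF3 (up to 0.171), and Os07g0178800 without those or GM3 (up to 0.153). The counts are of unique reads, which may leave out reads that match near copies such as these, so the level at each locus is uncertain.

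Pigment genes were mixed. LYCE (Os01g0581300), the lycopene epsilon-cyclase that directs carotenoids toward lutein, had 59.6, 81.9, 56.1 and 60.0 CPM in GM leaves, against 29.5, 21.3, 26.8 and 33.3 CPM in CF leaves (1.21 ± 0.15, adjusted p = 0.00124). CYP97A4 (Os02g0817900), a carotene hydroxylase of the same branch, had 282, 260, 340 and 341 CPM with green manure, against 435, 469, 466 and 423 CPM with chemical fertilizer (-0.55 ± 0.11, adjusted p = 0.0170). CYP97A4 lost its call without CF1, CF2 or CF3 (up to 0.0880), and LYCE kept it throughout. Of 30 tested chlorophyll genes, 26 were not called (median log2 fold change 0.29). The other 4 rose (13.3%, against 1.63% of all tested genes called higher). They were CHLH (0.60 ± 0.15), a subunit of magnesium chelatase, its activator GUN4 (0.77 ± 0.16), the light-dependent reductase PORA (2.02 ± 0.36) and NYC4 (0.67 ± 0.15), which acts in chlorophyll breakdown. PORA (Os04g0678700) had 75.1, 168, 157 and 154 CPM in GM leaves, against 39.9, 17.8, 33.5 and 44.9 CPM in CF leaves, with GM1 lowest among the GM leaves. GUN4, NYC4 and CHLH lost their calls without CF1, CF2 or CF3 and PORA without GM2, GM3, GM4, CF1, CF3 or CF4, with adjusted p up to 0.139, and the number of rises ranged from 0 to 10. With total-read scaling 2 were higher and 1 lower. PIL13 (Os03g0782500), a phytochrome-interacting-factor-like regulator of light responses, had 144, 227, 150 and 147 CPM in GM leaves, against 77.6, 76.5, 80.5 and 86.8 CPM in CF leaves, and its rise (1.06 ± 0.14, adjusted p = 0.00136) held in all 8 such fits.

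**Figure D3:**
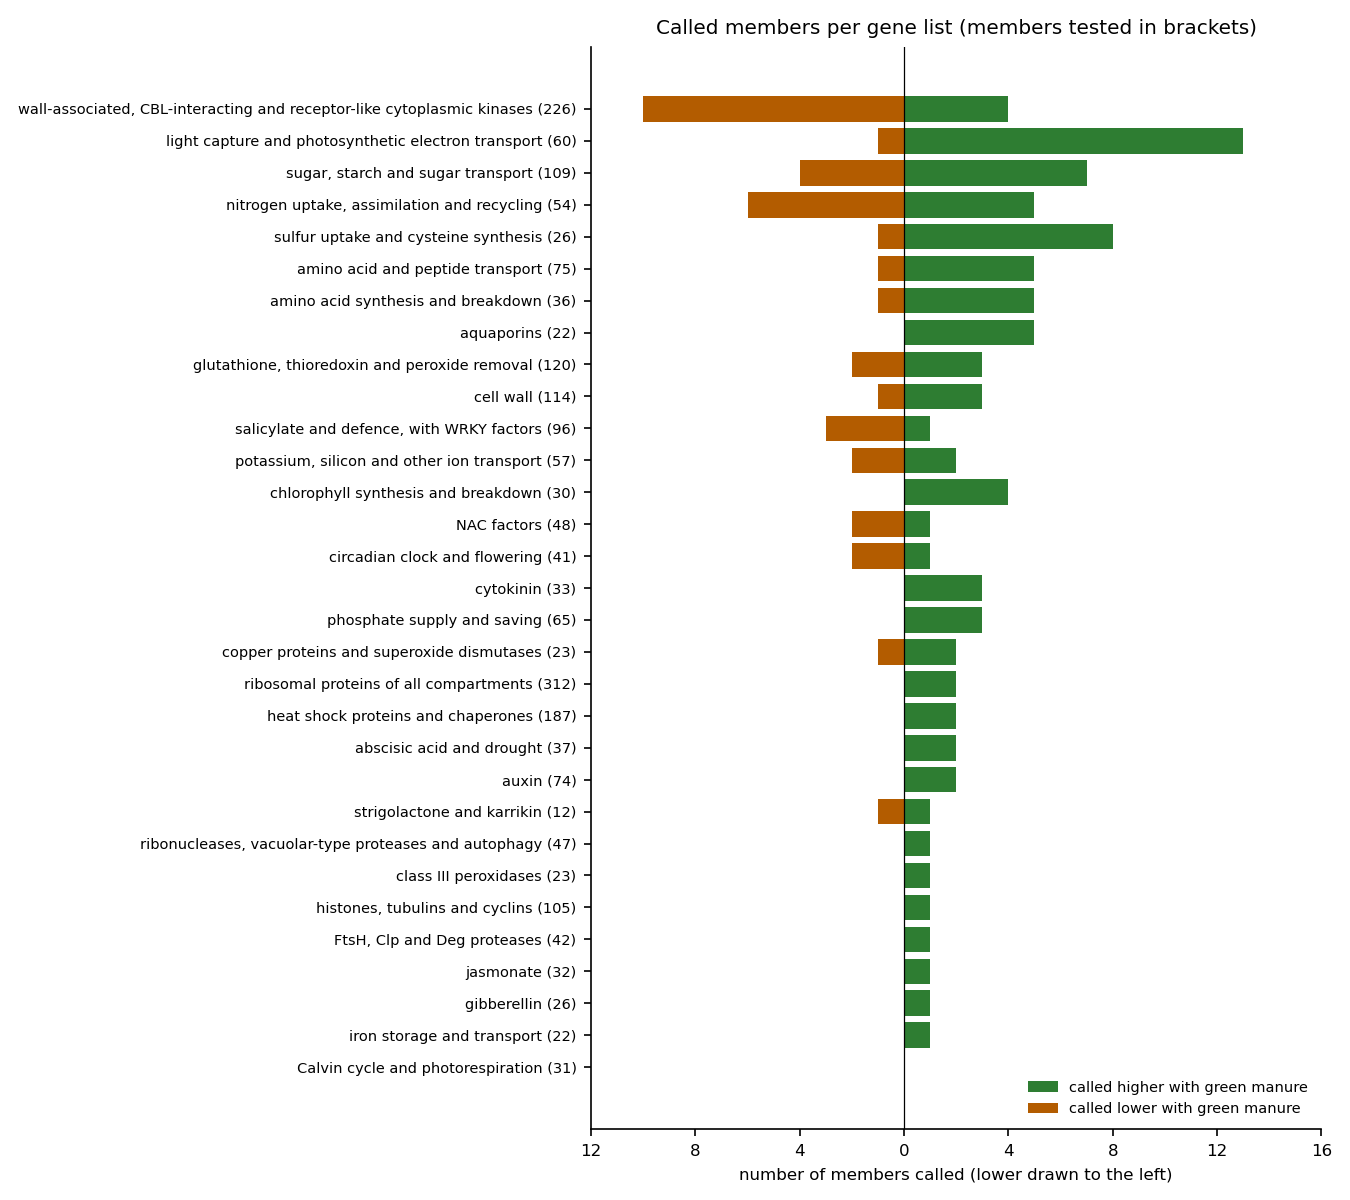
Number of tested members called higher (to the right, green) and lower (to the left, brown) with green manure in each gene list, with the number tested in brackets. Light capture has 13 higher and 1 lower of 60, sulfur 8 and 1 of 26, aquaporins 5 and 0 of 22, and the kinase list 4 and 10 of 226.

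Nitrogen genes were called in both directions. Among 54 tested genes of nitrogen uptake, assimilation and recycling, 5 rose, 6 fell and 43 were not called (median log2 fold change -0.04). In all, 20.4% were called, against 2.48% of all tested genes. OsHHO3 (Os03g0764600), of a family of repressors that respond to nitrate, had 52.2, 65.6, 47.5 and 55.0 CPM in GM leaves, against 16.6, 15.6, 21.0 and 23.8 CPM in CF leaves. It shared the smallest adjusted p of all tested genes (1.52 ± 0.14, adjusted p = 0.000136) and its groups were well apart. The cytosolic glutamine synthetase GLN1;2 (Os03g0223400), which fixes ammonium, had 60.1, 80.7, 52.5 and 56.0 CPM in GM leaves, against 22.4, 24.4, 26.6 and 37.1 CPM in CF leaves (1.17 ± 0.17, adjusted p = 0.00341). The NADH-dependent glutamate synthase GLT2 (Os05g0555600), the next enzyme of that cycle, was scarce. It had 4.62, 2.82, 1.57 and 1.98 CPM with green manure and 0.413, 1.17, 0.116 and 0.942 CPM with chemical fertilizer (2.04 ± 0.51, adjusted p = 0.0459).

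The enzymes ASNASE2 and ALN, which release nitrogen from storage compounds, fell. ASNASE2 (Os04g0650700), named as an asparaginase, an enzyme that splits ammonium from asparagine, had 469, 492, 662 and 577 CPM in GM leaves, against 1150, 1450, 1134 and 900 CPM in CF leaves (-1.07 ± 0.15, adjusted p = 0.00233). Allantoinase (ALN, Os04g0680400), which opens the purine breakdown product allantoin, had 72.8, 85.7, 115 and 116 CPM in GM leaves, against 166, 181, 172 and 147 CPM in CF leaves (-0.77 ± 0.14, adjusted p = 0.00939). Neither gene's groups overlapped, and both calls held whichever library was left out, as did those of OsHHO3 and GLN1;2.

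Transporters of the nitrogen list were called near the threshold. The ammonium transporter AMT3;2 (-1.08 ± 0.25), the nitrate transporters HTNE (-1.18 ± 0.29) and NRT2.4 (-0.45 ± 0.11) and the peptide transporter family member PTR7 (-0.72 ± 0.17) were lower, with adjusted p between 0.0327 and 0.0470. NPF3.1 (1.54 ± 0.38) and PTR4 (0.72 ± 0.17) of the same family were higher, with adjusted p of 0.0455 and 0.0403. HTNE, NRT2.4 and PTR7 lost their calls without any 1 of GM1 to GM4 and CF1 to CF3, where adjusted p reached 0.198, 0.191 and 0.170. AMT3;2 lost its call without GM2, CF1, CF2 or CF3 (up to 0.130). NPF3.1 and GLT2 were called only without GM3, and PTR4 only without CF1, with adjusted p up to 0.135, 0.166 and 0.136 in the other fits. With total-read scaling 2 members of the nitrogen list were higher and 12 lower.

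In amino acid synthesis and breakdown, 5 of 36 tested genes were higher and 1 lower (median log2 fold change 0.00). Called members made up 16.7%, against 2.48% of all tested genes. Os01g0693800, a threonine synthase, had 77.2, 85.8, 66.4 and 71.3 CPM in GM leaves, against 45.8, 35.5, 40.2 and 48.2 CPM in CF leaves (0.83 ± 0.12, adjusted p = 0.00233). Upstream of it, the bifunctional aspartokinase and homoserine dehydrogenase AK-HSDH2 (Os09g0294000) had 236, 221, 102 and 139 CPM with green manure, against 19.5, 15.1, 20.6 and 49.6 CPM with chemical fertilizer (2.73 ± 0.48, adjusted p = 0.0446). A second aspartokinase, Os03g0850400, had 21.1, 22.8, 26.0 and 19.8 CPM in GM leaves and 7.24, 1.80, 7.89 and 9.21 CPM in CF leaves (1.78 ± 0.36, adjusted p = 0.0403). The groups did not overlap for these 3 genes of the aspartate family. The tryptophan synthase TS (0.56 ± 0.11) and the prephenate dehydratase-like Os03g0286200 (0.51 ± 0.12), of aromatic amino acid synthesis, were the other rises. Os03g0850400 lost its call without any 1 of GM1 to GM4, CF1 and CF3, TS without CF1, CF2 or CF3, and Os03g0286200 without these or GM4, with adjusted p up to 0.130, 0.0715 and 0.118.

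The fall in that list was proline dehydrogenase. PRODH (Os10g0550900), the first enzyme of proline breakdown, had 67.7, 68.9, 70.1 and 65.6 CPM in GM leaves, against 125, 147, 126 and 93.3 CPM in CF leaves. The GM leaves varied little and lay below every CF leaf (-0.85 ± 0.12, adjusted p = 0.00233). Threonine synthase and PRODH kept their calls in all 8 fits that left out 1 library, whereas AK-HSDH2 kept its call only without GM3 or CF4 and reached an adjusted p of 0.148 in the other 6. Os03g0431200, similar to N-acetylglutamate synthase at the start of arginine synthesis, lies outside the list. It had 43.1, 46.0, 42.1 and 40.2 CPM in GM leaves, against 20.3, 12.7, 19.8 and 21.4 CPM in CF leaves (1.21 ± 0.14, adjusted p = 0.000650), a gap that was called in every such fit.

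Carriers of amino acids and peptides were called higher at 5 of 75 tested loci and lower at 1 (median log2 fold change 0.12). That was 8% called, against 2.48% of all tested genes. The peptide transporter OsPTR3 (Os12g0231000) had 97.5, 97.6, 84.7 and 95.0 CPM in GM leaves, against 37.7, 38.4, 44.4 and 63.0 CPM in CF leaves (1.03 ± 0.14, adjusted p = 0.00239). AAP10C (Os01g0878400), an amino acid permease, had 14.1, 10.5, 9.30 and 9.44 CPM with green manure, against 2.27, 5.63, 3.94 and 3.87 CPM with chemical fertilizer (1.47 ± 0.24, adjusted p = 0.00484). CF4 was the nearest CF leaf for OsPTR3 and CF2 for AAP10C, and neither overlapped. The amino acid carrier AAP11E fell (-1.82 ± 0.43, adjusted p = 0.0388), a call that was lost without any 1 of GM1 to GM4 and CF1 to CF3 (adjusted p up to 0.183).

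Of 26 tested genes of sulfur uptake and cysteine synthesis, 8 rose and 1 fell (median log2 fold change 0.18). Together these were 34.6% of the list, against 2.48% called of all tested genes. ASTOL1 (Os12g0625000), an O-acetylserine(thiol) lyase that makes cysteine, had 151, 196, 194 and 169 CPM in GM leaves, against 90.7, 89.9, 83.7 and 90.3 CPM in CF leaves. The CF leaves were almost equal and all GM leaves stood well above them (1.00 ± 0.10, adjusted p = 0.000226). SDI1 (Os03g0165900) carries the name of an Arabidopsis gene that sulfur deficiency induces. It had 32.5, 22.2, 34.0 and 10.4 CPM in GM leaves, against 2.69, 2.87, 2.09 and 2.09 CPM in CF leaves (3.35 ± 0.39, adjusted p = 0.00336), with GM4 lowest of the GM leaves and still far above the CF leaves.

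Sulfate transporters differed among themselves. The SULTR2;1 locus Os03g0195500 had 13.7, 9.64, 10.8 and 10.0 CPM in GM leaves, against 3.93, 4.57, 6.15 and 5.86 CPM in CF leaves (1.11 ± 0.20, adjusted p = 0.00709). A second locus of the same name, Os03g0195450, had 8, 12.8, 8.04 and 7.22 CPM with green manure, against 4.34, 3.72, 3.25 and 4.50 CPM with chemical fertilizer (1.18 ± 0.22, adjusted p = 0.0106). SULTR2;2 (Os03g0195300), another low-affinity sulfate transporter, went the other way, with 26.4, 25.2, 28.7 and 33.9 CPM in GM leaves, against 41.7, 39.0, 50.3 and 40.4 CPM in CF leaves (-0.59 ± 0.12, adjusted p = 0.0170). None of the 3 overlapped between treatments, and counting of unique reads may leave out reads shared by such similar loci.

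SAT2;2 (Os03g0196600), a serine acetyltransferase that makes the precursor O-acetylserine, had 22.5, 31.1, 12.6 and 18.3 CPM in GM leaves, against 6.41, 7.33, 5.91 and 12 CPM in CF leaves (1.41 ± 0.30, adjusted p = 0.0408). SAT3 (0.49 ± 0.12), CAS (0.47 ± 0.10) and the sulfate transporter SULTR4;1 (0.37 ± 0.09) rose by less. CAS is named a beta-cyanoalanine synthase and described as a cysteine synthase in the annotation. ASTOL1, SDI1 and Os03g0195500 kept their calls whichever library was left out. Os03g0195450 lost its call without CF3 (adjusted p = 0.0551), SULTR2;2 without CF1 or CF3 (up to 0.0905) and SAT2;2 without GM1, GM4, CF1, CF2 or CF3 (up to 0.143). SAT3, CAS and SULTR4;1 lost theirs without CF1, CF2 or CF3 among others (up to 0.166). Rises in this list numbered 3 to 7 over those fits. With total-read scaling they were 5, beside 2 falls.

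Copper genes formed a small set with large single changes, 2 rises and 1 fall among 23 tested (median log2 fold change 0.18). The share called was 13.0%, against 2.48% of all tested genes. COPT1 (Os01g0770700), a high-affinity copper transporter, had 53.9, 65.5, 46.6 and 56.2 CPM in GM leaves, against 17.3, 21.9, 21.7 and 29.2 CPM in CF leaves (1.30 ± 0.15, adjusted p = 0.000701). The precursor transcript MIR408 (Os01g0322700) encodes a microRNA that in Arabidopsis accumulates when copper is scarce and targets messages of copper proteins. It had 27.9, 35.9, 25.7 and 40.8 CPM with green manure, against 2.38, 3.61, 3.60 and 11.5 CPM with chemical fertilizer (2.62 ± 0.46, adjusted p = 0.0362), and CF4 was well above the other CF leaves.

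SOD4 (Os08g0561700), a superoxide dismutase, fell. It had 59.1, 116, 94.4 and 91.5 CPM in GM leaves, against 209, 170, 223 and 166 CPM in CF leaves (-1.09 ± 0.18, adjusted p = 0.00956). YSL16 (Os04g0542800), which the annotation describes as a transporter of copper bound to nicotianamine and which stands in the iron list, had 252, 199, 200 and 247 CPM in GM leaves, against 120, 117, 122 and 158 CPM in CF leaves (0.80 ± 0.12, adjusted p = 0.00288). Plastocyanin (PC, Os06g0101600), the copper protein that carries electrons to photosystem I, overlapped between treatments, at 2607 to 3976 CPM in GM leaves and 1982 to 2756 CPM in CF leaves, and was not called (adjusted p = 0.353). The transporters COPT4 (0.18 ± 0.16) and COPT7 (0.31 ± 0.15) were not called either. COPT1, SOD4 and YSL16 were called whichever library was left out, but MIR408 only without CF4, with an adjusted p up to 0.131 in the other 7 fits.

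**Figure D4:**
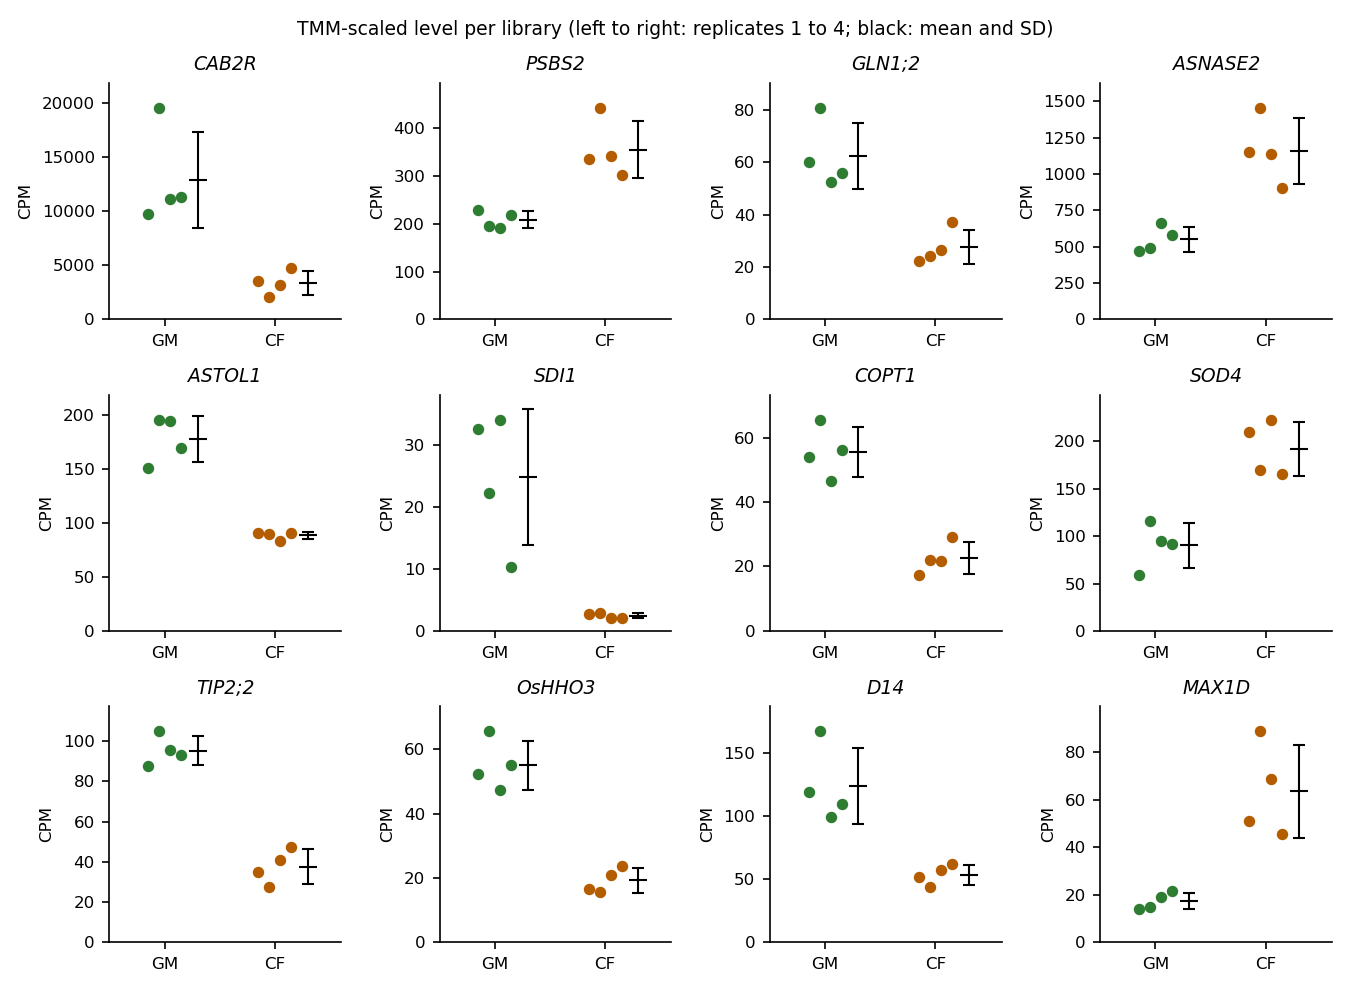
CPM of 12 genes in each leaf, GM (green) left of CF (brown), with the mean and SD of 4 leaves beside the points. CAB2R, GLN1;2, ASTOL1, SDI1, COPT1, TIP2;2, OsHHO3 and D14 are higher with green manure and PSBS2, ASNASE2, SOD4 and MAX1D lower, with no overlap between treatments in any of the 12.

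Of 22 tested aquaporins, the water channels of plant membranes, 5 rose and the other 17 were not called (median log2 fold change 0.28). The rises were 22.7%, against 1.63% of all tested genes called higher. In the vacuolar membrane, TIP2;2 (Os06g0336200) had 87.7, 105, 95.4 and 93.0 CPM in GM leaves, against 35.1, 27.3, 40.9 and 47.2 CPM in CF leaves (1.34 ± 0.14, adjusted p = 0.000281). In the plasma membrane, PIP2;2 (Os02g0629200) had 438, 357, 274 and 264 CPM with green manure, against 156, 140, 144 and 187 CPM with chemical fertilizer (1.09 ± 0.16, adjusted p = 0.00288). PIP1A (Os02g0666200) had 890, 1006, 859 and 794 CPM in GM leaves, against 585, 540, 557 and 581 CPM in CF leaves (0.65 ± 0.11, adjusted p = 0.00561). These 3 genes did not overlap and were called whichever library was left out. PIP1;2 (0.47 ± 0.10) and TIP1;1 (0.55 ± 0.12) were the other rises, and both lost their calls without CF1, CF2 or CF3 (adjusted p up to 0.105 and 0.0880). With total-read scaling 3 aquaporins were called, all higher.

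Strigolactones are hormones that repress tillering. Of 12 tested genes of strigolactone and karrikin signalling, the receptor D14 (Os03g0203200) was the 1 that rose, with 119, 167, 99.5 and 109 CPM in GM leaves, against 51.7, 43.7, 56.9 and 62.1 CPM in CF leaves (1.21 ± 0.16, adjusted p = 0.00233). MAX1D (Os02g0221900), a cytochrome P450 related to the strigolactone synthesis enzyme MAX1 of Arabidopsis, was the 1 that fell, with 14.1, 15.1, 19.2 and 21.6 CPM in GM leaves, against 51.1, 88.9, 69.0 and 45.4 CPM in CF leaves (-1.86 ± 0.23, adjusted p = 0.00334). Both were clear of overlap and were called in all 8 fits that left out 1 library. They made up 16.7% of the tested list, against 2.48% called of all tested genes. Without GM1 and GM2 together, MAX1D was not called (-1.64, adjusted p = 0.0904).

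Cytokinins delay leaf ageing. Of 33 tested cytokinin genes 3 rose and the other 30 were not called (median log2 fold change 0.28). The rises were 9.09%, against 1.63% of all tested genes called higher. Without GM1 and GM2 the median was -0.03 and 7 were called higher. The response regulator RR2 (Os02g0557800), an output of cytokinin signalling, had 97.8, 102, 81.5 and 84.6 CPM in GM leaves, against 46.1, 54.8, 50.3 and 62.1 CPM in CF leaves (0.78 ± 0.11, adjusted p = 0.00239). Genes for enzymes that break cytokinin down rose as well. CKX4 (Os01g0940000) had 69.3, 66.2, 69.0 and 76.0 CPM with green manure, against 41.7, 43.1, 42.8 and 52.7 CPM with chemical fertilizer (0.64 ± 0.10, adjusted p = 0.00345), and CKX11 changed by 0.70 ± 0.14. RR2 and CKX4 were called whichever library was left out, whereas CKX11 was not called without CF3 (adjusted p = 0.0801).

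In the gibberellin pathway 1 of 26 tested genes was called (3.85%, against 2.48% of all tested genes). CYP714B2 (Os03g0332100), a 13-oxidase that converts gibberellins to less active forms, had 23.1, 19.3, 19.9 and 17.5 CPM in GM leaves, against 6.20, 9.56, 6.15 and 13.7 CPM in CF leaves (1.16 ± 0.22, adjusted p = 0.0148, lost without CF1, CF2 or CF3 with values up to 0.0584). SD1 (Os01g0883800), the gibberellin 20-oxidase of the semi-dwarf locus, had 57.2, 45.4, 14.9 and 18.1 CPM with green manure and 10.7, 13.1, 8.35 and 12.3 CPM with chemical fertilizer. GM1 and GM2 were far above GM3 and GM4, and SD1 was not called (1.61 ± 0.49, adjusted p = 0.181).

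Abscisic acid and drought genes were called at 2 of 37 tested loci (5.4%), both rises. ASR5 (Os11g0167800), a stress- and ripening-induced protein, had 744, 935, 877 and 758 CPM in GM leaves, against 444, 356, 458 and 452 CPM in CF leaves (0.95 ± 0.12, adjusted p = 0.00124). Its relative ASR4 (Os04g0423400) had 98.0, 111, 130 and 114 CPM with green manure, against 67.6, 51.9, 67.4 and 69.2 CPM with chemical fertilizer (0.82 ± 0.11, adjusted p = 0.00233). In both, CF2 was the lowest leaf and the groups did not overlap. The auxin list gave 2 rises among 74 (2.7%), the dormancy-associated genes ARP1 (1.03 ± 0.16) and Os03g0342900 (0.60 ± 0.14). The jasmonate list gave 1 among 32 (3.1%), a lipoxygenase (Os02g0753300, 1.27 ± 0.26). Of all tested genes, 2.48% were called. ASR5, ASR4 and ARP1 were called whichever library was left out, Os03g0342900 lost its call without any 1 CF library (adjusted p up to 0.126), and the lipoxygenase without GM4, CF2 or CF3 (up to 0.0733).

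Carbohydrate genes were called in both directions, 7 higher and 4 lower of 109 tested (median log2 fold change -0.00). That made 10.1% called, against 2.48% of all tested genes. The starch synthase SSIVA (Os01g0720600) had 21.6, 19.8, 15.3 and 20.5 CPM in GM leaves, against 8.37, 9.34, 8 and 10.6 CPM in CF leaves (1.09 ± 0.15, adjusted p = 0.00233). The neutral invertase NIN2 (Os01g0332100), which splits sucrose, had 270, 167, 155 and 180 CPM in GM leaves, against 101, 99.0, 92.1 and 132 CPM in CF leaves (0.87 ± 0.17, adjusted p = 0.0255). The trehalose-phosphate phosphatase TPP6 (0.66 ± 0.13) and synthase TPS2 (0.41 ± 0.10), the vacuolar sugar carrier TMT2 (0.60 ± 0.12) and the carriers PLT15 (0.53 ± 0.10) and PGLCT3 (0.47 ± 0.09) also rose. The falls were the sugar transporters SWEET3A (-0.59 ± 0.13) and STP26 (-0.42 ± 0.10), the starch synthase SSIV3 (-0.48 ± 0.12) and the trehalose-phosphate synthase TPS4 (-0.51 ± 0.12). SSIVA kept its call whichever library was left out, while all of the others named lost theirs without CF3, among others (adjusted p up to 0.19). The number of rises ranged from 1 to 10. Under total-read scaling the balance of the list turned, with 2 higher and 5 lower.

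Members of the cellulose synthase-like families, which make wall polysaccharides, rose. CSLE6 (Os09g0478300) had 182, 131, 89.6 and 103 CPM in GM leaves, against 39.6, 31.2, 39.5 and 47.4 CPM in CF leaves (1.68 ± 0.22, adjusted p = 0.00621). CSLE1 (Os09g0478100), of the same family, had 51.9, 39.4, 31.5 and 29.9 CPM with green manure, against 21.9, 19.2, 21.7 and 20.3 CPM with chemical fertilizer (0.88 ± 0.15, adjusted p = 0.00783). CSLH1 (Os10g0341700), of a family that makes mixed-linkage glucan in grasses, had 40.6, 39.9, 45.8 and 35 CPM in GM leaves, against 25.4, 23.0, 24.8 and 23.9 CPM in CF leaves (0.73 ± 0.11, adjusted p = 0.00239). No CF leaf reached a GM leaf in any of them, and CSLE6 lost its call without GM2 (adjusted p = 0.0567). The phenylalanine ammonia-lyase OsPAL02, the entry to lignin and phenolics, fell (-0.53 ± 0.12) but lost its call without any 1 CF library (up to 0.127). In all, 3 of 114 tested wall genes were higher and 1 lower (median log2 fold change -0.04). That was 3.51% called, against 2.48% of all tested genes.

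Kinases were called mostly lower. Of 226 tested wall-associated, CBL-interacting and receptor-like cytoplasmic kinases, 10 fell and 4 rose, and the median log2 fold change was -0.17. In all, 6.2% were called, against 2.48% of all tested genes (1.63% higher and 0.851% lower). WAK14 (Os02g0632800), a wall-associated kinase, had 3.02, 3.17, 2.61 and 5.13 CPM in GM leaves, against 14.1, 6.79, 10.4 and 7.43 CPM in CF leaves (-1.48 ± 0.27, adjusted p = 0.00901). WAK82 (Os09g0471500) had 20.4, 16, 14.3 and 17.4 CPM with green manure, against 48.6, 35.5, 33.4 and 24.5 CPM with chemical fertilizer (-1.06 ± 0.18, adjusted p = 0.00939). The groups stayed apart for both, and WAK14 was called whichever library was left out, while WAK82 was not called without GM2 (adjusted p = 0.0590). WAK85 (-1.08 ± 0.21), WAK81 (-0.68 ± 0.17), WAK50 (-0.60 ± 0.14) and WAK45 (-0.82 ± 0.21) also fell. Counted apart after the values were seen, 6 of 50 tested wall-associated kinases fell (12%), against 0.851% of all tested genes called lower. These 4 lost their calls without CF1, CF2 or CF3 (up to 0.179).

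CBL-interacting kinases, which relay calcium signals to ion channels, were also counted apart after the values were seen. They were called in both directions, 3 higher (12.5%) and 2 lower (8.33%) of 24 tested. Over all tested genes 1.63% were called higher and 0.851% lower. CIPK14 (Os12g0113500) had 12.5, 13.5, 10.0 and 12.7 CPM in GM leaves, against 6.10, 2.44, 3.36 and 5.86 CPM in CF leaves (1.45 ± 0.24, adjusted p = 0.00561). CIPK29 (0.96 ± 0.17) and CIPK01 (0.72 ± 0.14) were higher too, but CIPK11 (-0.68 ± 0.13) and CIPK16 (-0.51 ± 0.13) were lower. CIPK14 was called whichever library was left out, and the other 4 lost their calls without CF1 (adjusted p up to 0.154). The count of kinase falls ranged from 2 to 15 as single libraries were left out, and was 22, with 3 rises, under total-read scaling. Defence genes added 3 falls and 1 rise among 96 tested (4.17%, against 2.48% of all tested genes). The falls were WRKY64 (-1.32 ± 0.30), WRKY45 (-0.49 ± 0.11) and F3H2 (-0.77 ± 0.17), whose calls were all lost without CF1 and without CF3 (up to 0.136).

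Peroxide and thiol genes were called in both directions, with 3 rises and 2 falls of 120 tested (4.17% called, against 2.48% of all tested genes). Their median log2 fold change was 0.13, with 86 members above 0 and 34 below. DESeq2 called 11 higher and 3 lower. The ascorbate peroxidases APX7 and APX8 went opposite ways. APX7 (Os04g0434800) had 51.9, 37.0, 39.6 and 38.7 CPM in GM leaves, against 73.6, 86.1, 83.6 and 60.7 CPM in CF leaves (-0.86 ± 0.13, adjusted p = 0.00288). APX8 (Os02g0553200) had 676, 1137, 998 and 1053 CPM in GM leaves and 576, 415, 602 and 725 CPM in CF leaves (0.74 ± 0.18, adjusted p = 0.0495). APX7 did not overlap and kept its call in all 8 fits that left out 1 library, while APX8 overlapped and lost its call in 6 of them (up to 0.188). With total-read scaling 1 member of the list was higher and 3 lower.

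Several of the firmest falls lay outside the lists. PPR6 (Os05g0574800), a pentatricopeptide repeat protein of a class that binds organelle RNA, had 19.0, 18.7, 16.9 and 16.1 CPM in GM leaves, against 39.0, 35.9, 37.6 and 37.2 CPM in CF leaves (-1.08 ± 0.10, adjusted p = 0.000136). OsBBD1 (Os01g0702000) had 8.26, 7.29, 8.46 and 10.6 CPM with green manure, against 26.6, 36.0, 28.6 and 21.8 CPM with chemical fertilizer (-1.71 ± 0.17, adjusted p = 0.000136). CYP81L6 (Os02g0504000), a cytochrome P450, had 102, 71.6, 63.6 and 67.7 CPM in GM leaves, against 165, 200, 165 and 134 CPM in CF leaves (-1.12 ± 0.15, adjusted p = 0.00239). The spread inside each group was small beside the gap for PPR6, and none of these genes overlapped.

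Regulatory and amine-metabolism genes followed. MIR159A (Os01g0507000), the precursor of a microRNA that targets GAMYB-type messages, had 25.8, 33.6, 35.7 and 34.1 CPM in GM leaves, against 56.0, 64.0, 56.6 and 49.2 CPM in CF leaves (-0.81 ± 0.12, adjusted p = 0.00243). TARL1 (Os01g0717700), related to tryptophan aminotransferases, had 89.0, 76.0, 82.9 and 98.0 CPM with green manure, against 160, 165, 137 and 145 CPM with chemical fertilizer (-0.81 ± 0.10, adjusted p = 0.00124). These 2 genes, PPR6, OsBBD1 and CYP81L6 kept their calls whichever library was left out. The diamine oxidase DAO2 (-0.51 ± 0.11) and the receptor-like kinases LP2 (-0.58 ± 0.13) and MRLK59 (-0.60 ± 0.13) were among the most abundant falls, and all 3 lost their calls without CF1, CF2 or CF3 (adjusted p up to 0.148).

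With TMM scaling, the further lists named here had called shares on both sides of the 2.48% of all tested genes. Phosphate (4.6%), ion transport (7.0%), clock and flowering (7.3%) and NAC genes (6.25%) lay above it. Heat shock proteins and chaperones (1.07%), ribosomal proteins (0.641%) and histones, tubulins and cyclins (0.952%) lay below it. Phosphate genes gave 3 rises among 65, the sulfolipid synthase SQD2.1 (0.59 ± 0.10), the glycosyltransferase PLS2 (0.54 ± 0.11) and the MYB-type factor PHR4 (0.43 ± 0.10). Among 57 ion transport genes, the potassium transporters HAK4 (-1.50 ± 0.36) and HAK5 (-0.93 ± 0.23) fell, and HAK2 (0.64 ± 0.16) and the chloride channel CBSCLC6 (0.57 ± 0.13) rose. With total-read scaling the 4 called members of that list were all lower, and neither HAK2 (adjusted p = 0.146) nor CBSCLC6 (0.149) was called. The clock and flowering list gave a rise of BBX3 (0.74 ± 0.14) and falls of CMF3 (-0.67 ± 0.12) and OsBBX30 (-1.05 ± 0.23) among 41, and 1 rise and 4 falls with total-read scaling. Heat shock proteins and chaperones were called at 2 of 187 loci, both higher, against 2 rises and 14 falls with total-read scaling and 4 rises and 9 falls without GM1 and GM2. Ribosomal proteins were called at 2 of 312 loci, and histones, tubulins and cyclins at 1 of 105, the beta-tubulin TUB6 (2.43 ± 0.38). Of the 48 NAC factors TIL1 rose (0.97 ± 0.24) and ONAC2 (-0.59 ± 0.13) and NAC95 (-0.53 ± 0.13) fell, and with total-read scaling 4 fell and TIL1 was not called. SQD2.1 and CMF3 were called whichever library was left out, and each of the other genes named here lost its call without CF1 and without CF2 (adjusted p up to 0.185).

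The number of calls depended on single leaves. Without CF1, CF2 or CF3 the counts were 149, 180 and 150, without GM1 666, and without the other libraries between 325 and 421. Of the 460 called genes, 116 were called in all 8 of these fits, 80 higher and 36 lower. Leaving out GM1 and GM2 together gave 788 calls (4.11% of the genes tested there), 499 higher and 289 lower, of which 337 were shared, 73.3% of the 460 and 42.8% of the 788. GM2 held the highest level of the 4 GM leaves at 178 of the 302 genes called higher, against 64 for GM1, 38 for GM3 and 22 for GM4, and the lowest level at 70 of the 158 genes called lower. The part that these leaf-to-leaf differences play in the calls was not tested beyond these fits. The treatments did not overlap at 448 of the 460 called genes, against 10.0% of all tested genes. The calls were made from these same values, so this separation adds no support to them.

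**Figure D5:**
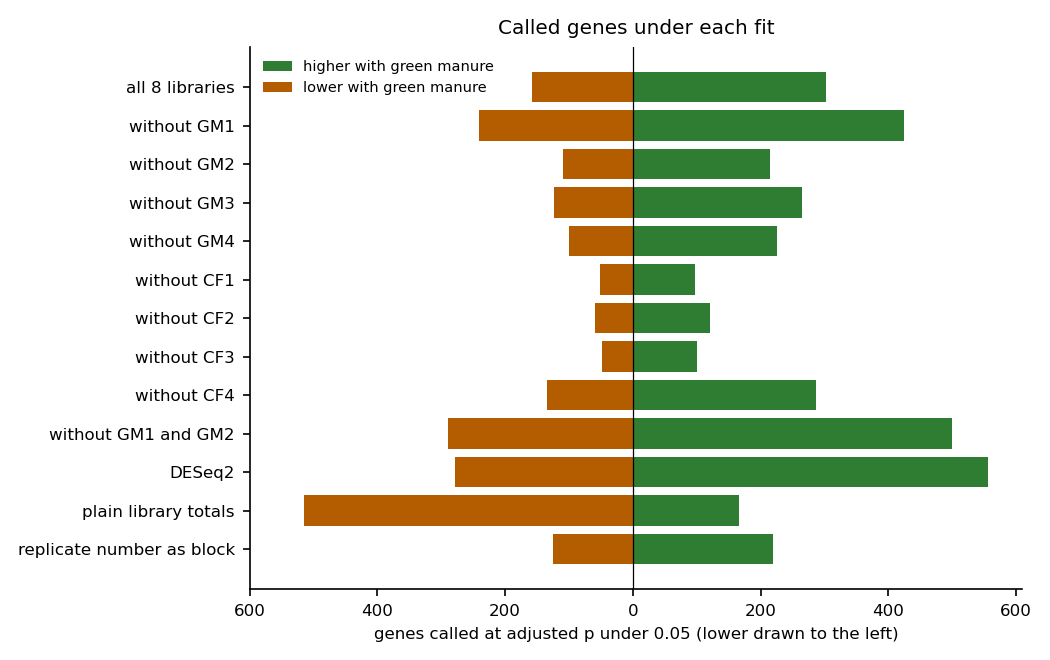
Genes called higher (right, green) and lower (left, brown) with green manure under each fit. All 8 libraries give 302 and 158, leaving out CF1, CF2 or CF3 gives between 149 and 180 in all, and scaling by plain library totals gives 166 higher and 515 lower.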

How the data were processed

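RNA was counted in 8 leaf libraries of 2023, grouped by the treatment in their labels, 4 per treatment. The deposited values are raw read counts per locus for 37727 genes, which the authors made from directional polyA libraries and the labels describe as unique reads on exons. The genome was IRGSP 1.0 according to the submitters' processing notes. Which aligner, counter and strand setting were used is not given in the sources used here. Hence values of near-identical copies, overlapping genes and antisense partners are uncertain. A second deposited table, of another year, was not used; 2 of its per-sample columns have no label.

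Genes had to pass filterByExpr (at a minimum count of 10 and a minimum total of 15). TMM scaling was followed by the robust quasi-likelihood F-test of edgeR 4.0.16 in R 4.3.3, alongside limma 3.58.1. A gene was called at a Benjamini-Hochberg adjusted p under 0.05 over all 18577 tested genes. The standard error of a log2 fold change is its size divided by the square root of F. CPM values are TMM-scaled, and principal components used log2 CPM with a prior count of 2. Where a group had no read, a floor of 3 reads over the group was used.

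Replicate numbers are not stated to pair leaves, and the deviations of same-numbered leaves correlated by -0.12, 0.05, 0.15 and -0.09, so no pairing was assumed. Genes were named by rule: the 10 called genes with the smallest p in each direction that have an informative name, the 8 most abundant called genes in each direction, up to 3 called members of each of the 32 lists or the nearest one, the 6 strongest loadings at each end of the first component, and the copper genes MIR408, COPT and plastocyanin with the gibberellin 20-oxidase gene. Other called list members are given by value beside them. The comparison, its lists and its rule were chosen with earlier results of these data known. Lists were read from symbols and descriptions in the deposited table and are described by counts and medians without a set test.

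Alternatives were DESeq2 1.42.0, its size factors in edgeR, plain library totals, no filter beyond 1 read, a filter at 5 CPM, calls limited to log2 changes of 1 or more in size, a block for the replicate number, fits without any 1 library, and a fit without GM1 and GM2. Other settings for the principal components and the gene families of the closing section were chosen after seeing the data.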

Additional observations from a re-analysis of the deposited data

Results flagged for a closer look

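In 18 of 224 groups of 4 leaves checked, 1 leaf lay far from the other 3 relative to the range of the group (Dixon's criterion at 95%), where chance flags about 1 group in 20. All values are CPM. GM2 was the high leaf among GM leaves for CAB2R (19525, others 9709 to 11305), PIL13 (227, others 144 to 150), LYCE (81.9, others 56.1 to 60.0), the dormancy-associated gene Os03g0342900 (316, others 198 to 217), OsGAPB (8148, others 6188 to 6242) and plastocyanin (PC; 3976, others 2607 to 2748). GM1 was the low GM leaf for PORA (75.1, others 155 to 168), and GM4 the high one for the kinase gene Os09g0339000 (23.1, others 17.3 to 17.7).

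CF4 was the high leaf among CF leaves for MIR408 (11.5, others 2.38 to 3.61), CKX4 (52.7, others 41.7 to 43.1), YSL16 (158, others 117 to 122), FTSH6 (2.09, others 0.531 to 0.696) and BURP7 (4.92, others 0.348 to 0.620). For these 5 genes, all higher on average in GM leaves, CF4 was thus the CF leaf nearest to the GM leaves. CF2 was the low CF leaf for ASR5 (356, others 444 to 458) and ASR4 (51.9, others 67.4 to 69.2), and the high one for Os07g0178800 (2116, others 1261 to 1357) and the carrier OsBAT4 (52.8, others 50.1 to 50.5). CF3 was the low CF leaf for ASTOL1 (83.7, others 89.9 to 90.7). The part that single leaves play in these genes was not tested beyond the fits without each library.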

How the results depend on the processing

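Against 460 called genes (302 higher, 158 lower, 129 list members), DESeq2 gave 835 (556 higher, 279 lower, 215 list members) and kept all 460. Leaving out GM1 and GM2 gave 788 (499 higher, 289 lower, 206 list members), and a log2 change of at least 1 left 152 (100 higher, 52 lower, 53 list members). Plain library totals gave 681 with the split turned to 166 higher and 515 lower. DESeq2 size factors (460), no filter (627) and a filter at 5 CPM (413) stayed within 1.5 times. Leaving out single libraries gave 149 to 666 calls, 97 to 425 higher, 49 to 241 lower and 44 to 175 list members, with the lowest counts without CF1, CF2 or CF3. With the replicate number as a block 344 genes were called, 219 higher and 125 lower, of which 301 were shared. The block is no pairing in the design, and GM1 correlated best with CF2 (0.28). Of the 112 genes named by rule 99 were called, 50 of them in every fit that left out 1 library. None of these 99 turned its direction under any setting run, and the other called genes were not checked for this. The first principal component held 38.8% of the variance with plain totals, 23.8% without a filter and 39.5% with the filter at 5 CPM, against 32.2%.

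The uncalled genes that cut across the treatments did turn. XTH10 (-0.22) ranged from -1.16 without GM3 to 0.30 without CF1 and was also above 0 without GM1 (0.22), GM2 (0.16) or CF3 (0.19). GELP77 (-0.53) ranged from -1.15 without GM3 to 0.069 without CF1, and prx125 (0.67) from -0.044 without GM4 to 1.18 without CF3. Without GM1 and GM2, XTH10 was at 0.78, GELP77 at 0.48 and Os01g0378100 (-0.53) at 0.44. The causes were not tested. Depth limits the low genes, such as GLT2 and HAK4, which had under 6 CPM in every leaf.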

Other observations

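Some families and genes outside the lists were picked after their values were seen, and their values are given as a description. EIL4 (Os08g0508700), of the EIN3-like factors, had 22.6, 19.6, 26.9 and 17.2 CPM in GM leaves, against 9.51, 12.2, 7.42 and 7.75 CPM in CF leaves (log2 fold change 1.23 ± 0.18, adjusted p = 0.00239). SDI2 (Os05g0506000), a relative of SDI1, had 97.7, 69.9, 61.3 and 47.8 CPM in GM leaves, against 31.2, 36.6, 40.7 and 36.8 CPM in CF leaves (0.93 ± 0.19, adjusted p = 0.0290). The arsenate reductase HAC1;1 (Os02g0102300), which the annotation also calls rhodanese-like, had 26.1, 34.7, 53.3 and 25.9 CPM in GM leaves, against 11, 10.8, 7.77 and 11.1 CPM in CF leaves (1.78 ± 0.24, adjusted p = 0.00376). None of the 3 overlapped, and SDI2 lost its call without GM2 or any 1 CF library (adjusted p up to 0.142). Of 13 loci described first as rhodanese-like, a fold of sulfur-transferring enzymes, STR1 (1.78 ± 0.34), STR10 (0.60 ± 0.14) and STR4 (0.48 ± 0.12) rose and the other 10 were not called (median log2 fold change 0.17). Over all tested genes 1.63% were called higher. When single libraries were left out, STR1 was called in 5 of 8 fits, STR10 in 4 and STR4 in 1. In the other fits their adjusted p reached 0.0715, 0.123 and 0.168.

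OsPEAMT2 (Os05g0548900), a phosphoethanolamine methyltransferase of phosphatidylcholine synthesis, had 846, 1187, 1020 and 937 CPM in GM leaves, against 168, 179, 168 and 395 CPM in CF leaves, with CF4 highest of the CF leaves (2.13 ± 0.30, adjusted p = 0.0115). It lost its call without GM2 (adjusted p = 0.0717). DUR3 (Os10g0580400), the urea transporter, had 54.8, 48.7, 47.6 and 49.2 CPM in GM leaves, against 96.4, 102, 87.9 and 62.4 CPM in CF leaves (-0.80 ± 0.13, adjusted p = 0.00488), and was called whichever library was left out. The ornithine carbamoyltransferase gene Os02g0704800, of arginine synthesis, had 38.6, 49.6, 39.3 and 36.9 CPM in GM leaves, against 26.7, 16.8, 25.6 and 27.0 CPM in CF leaves (0.77 ± 0.15, adjusted p = 0.0115). With Os03g0431200 it made up the 2 rises among 12 tested arginine and urea-cycle genes. Over all tested genes 1.63% were called higher.

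Among 9 tested NF-YA factors, subunits of CCAAT-binding complexes, HAP2E (-0.50 ± 0.12), HAP2H (-0.64 ± 0.13) and HAP2F (-0.83 ± 0.20) fell and the other 6 were not called (median log2 fold change -0.35). Over all tested genes 0.851% were called lower. All 3 of these falls lost their calls without CF2 or CF3 (adjusted p up to 0.153). Of 139 tested NB-ARC proteins, the intracellular receptor class of disease resistance, 4 fell and 1 rose (median log2 fold change -0.19). Of all tested genes, 0.851% were called lower and 1.63% higher. All 4 falls lost their calls without CF3, among others (adjusted p up to 0.119), while the rise, Os11g0220300, was called whichever library was left out. Of 23 carotenoid and xanthophyll genes, LYCE rose and CYP97A4 fell. The other 21 were not called, while 2.48% of all tested genes were called.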
